A study of Mus musculus with 19 samples.

Results

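The acyl-CoA synthetase family was followed in 19 lines of mouse pancreatic duct organoids, hollow epithelial spheres grown in a gel. Its 9 members here were the genes Acsm3, Acsl1, Acsl3, Acsl4, Acsl5, Acss1, Acss2, Acsf2 and Acsf3, found by symbol among the 29861 rows of the deposited expression table, and all 9 were among the 12500 genes tested. The genes were chosen by family, starting from Acsm3, which had been selected on its higher TPM in PanIN and tumor lines than in normal lines. Of the lines, 6 were tumor lines from pancreatic adenocarcinomas of mice with Pdx1-Cre and the Cre-activated mutant allele Trp53LSL-R172H. Another 6 were PanIN lines, from ducts of Pdx1-Cre mice whose pancreas held pancreatic intraepithelial neoplasia, the precursor lesion of ductal adenocarcinoma, with no altered Trp53 allele in their labels. The other 7 were normal lines from ducts of histologically normal pancreas of wild-type mice, which carried no Cre. Pdx1-Cre acts in the progenitors of the pancreatic epithelium, so that the alleles it switches on are altered in ducts as well as in acinar and islet cells. All mice had a C57B6/J background; the labels give no age. Every line was grown in Matrigel in the same medium, which contained R-spondin, noggin, gastrin, EGF, FGF-10 and A83-01, an inhibitor of TGF-beta receptors. Tumor and PanIN lines differed both in Trp53 genotype and in source tissue, and the effects of these cannot be told apart. Whether some lines came from 1 mouse is not labelled, so p-values reflect spread among lines, which need not be spread among mice.

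Acyl-CoA synthetases join a free fatty acid to coenzyme A, using ATP, with an acyl-adenylate as the intermediate. A fatty acid must be activated in this way before it can be oxidised, elongated, desaturated or built into glycerolipids and phospholipids. The families are named by the chain length they prefer: ACSS enzymes take short chains such as acetate, ACSM medium chains and ACSL long chains, while the ACSF genes are more distant relatives. Where an ACSL enzyme sits in the cell, on the endoplasmic reticulum, the outer mitochondrial membrane, the plasma membrane or lipid droplets, is thought to influence where its product goes.

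Expression was given as TPM, an abundance of transcripts corrected for transcript length and scaled to the same total in each line. Because TPM keeps no depth, the number of reads behind a value is unknown. Each line had 11938 to 12437 genes with at least 1 TPM. All 10 duct epithelium markers averaged at least 1 TPM in each group, with sums of 7320 to 9222 TPM in tumor, 7824 to 12343 in PanIN and 10206 to 15354 in normal lines. Acinar marker sums were 1.56 to 2.77, 1.41 to 3.03 and 1.18 to 2.53 TPM in tumor, PanIN and normal lines, with Cpb1, Cela2a and Ptf1a at 0. Cela1 had 0.79 to 2.36 TPM over all lines. Islet markers summed to at most 0.32 TPM, with Ins1, Ins2, Gcg and Ppy at 0. Immune marker sums were 1.46 to 3.85 TPM in tumor, 2.72 to 3.61 in PanIN and 4.15 to 8.23 in normal lines, with Lyz2 and Cd3e at 0. Over all lines Csf1r had 0.18 to 5.57 TPM and Cd68 had 1.2 to 3.65 TPM. In bulk libraries such as these, fewer cells of a type and less RNA per cell cannot be told apart. Library identifiers in the table's column names fell into 3 series, taken as a possible batch. In the first were tumor 4, PanIN 1, 2 and 3 and normal 5, 6 and 7. The second held tumor 5, 7 and 8, PanIN 4 and normal 10 and 11. The third held tumor 3 and 9, PanIN 5 and 6 and normal 12 and 13.

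The start-site sequences of 3 members are shown, those of the medium-chain gene and of the 2 most abundant long-chain genes. Acsm3 was near 0 in normal lines, Acsl5 was the most abundant member and higher in tumor lines, and Acsl4 was abundant without being higher there. Each is the RefSeq promoter window of build GRCm38.p6, 250 bases before to 50 after the annotated start, written 5′ to 3′ along the gene. Capitals mark CCAAT and GGGCGG on either strand, so that CCAAT can appear as ATTGG and GGGCGG as CCGCCC. The windows are chr7:119760673-119760972 on the plus strand for Acsm3, chr19:55253119-55253418 on the plus strand for Acsl5 and chrX:142390486-142390785 on the minus strand for Acsl4.
Acsm3: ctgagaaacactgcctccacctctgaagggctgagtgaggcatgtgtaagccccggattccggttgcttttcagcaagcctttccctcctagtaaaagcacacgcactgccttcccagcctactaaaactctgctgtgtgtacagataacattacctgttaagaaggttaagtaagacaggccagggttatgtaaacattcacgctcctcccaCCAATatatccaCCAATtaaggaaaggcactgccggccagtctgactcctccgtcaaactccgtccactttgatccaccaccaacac
Acsl5: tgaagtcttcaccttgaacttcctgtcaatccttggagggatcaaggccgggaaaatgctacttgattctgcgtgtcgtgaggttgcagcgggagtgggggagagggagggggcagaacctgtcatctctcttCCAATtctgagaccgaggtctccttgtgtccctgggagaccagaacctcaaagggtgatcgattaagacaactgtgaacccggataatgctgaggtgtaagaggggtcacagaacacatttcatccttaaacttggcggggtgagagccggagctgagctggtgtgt
Acsl4: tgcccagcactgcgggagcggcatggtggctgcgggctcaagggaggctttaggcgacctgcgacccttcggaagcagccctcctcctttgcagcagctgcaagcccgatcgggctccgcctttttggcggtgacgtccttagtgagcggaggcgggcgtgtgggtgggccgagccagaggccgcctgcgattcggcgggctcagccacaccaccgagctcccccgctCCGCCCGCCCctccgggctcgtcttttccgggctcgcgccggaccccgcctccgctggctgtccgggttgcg
The Acsm3 window held 2 CCAAT motifs, whose first bases lie 37 and 25 bases before the window's start site, and 7 CG dinucleotides. The RefSeq gene table starts Acsm3 at base 119760883, ahead of both motifs, so whether they precede the gene depends on the start used. Acsl5 had 1 CCAAT motif, 117 bases before the start, and 9 CG dinucleotides. Neither held GGGCGG. The Acsl4 window had 2 GGGCGG motifs, 33 CG dinucleotides and a GC content of 71.7%, against 50% for Acsm3 and 53% for Acsl5. Over 32851 RefSeq promoter windows of the same length, 37.4% held CCAAT, 35.7% held GGGCGG, the median number of CG dinucleotides was 7 and the median GC content 52.7%. The letters TATAAA, also sought on both strands and held by 13.6% of all windows, were in the window of none of the 9 members. The motifs overlap each other only where capitals run on, and a match is only a match of letters.

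Acsm3, which encodes a medium-chain acyl-CoA synthetase of mitochondria, was nearly absent from normal lines and present in each PanIN and tumor line. The gene had been known from an earlier result for its higher level over normal lines, so its values against normal lines are a description. In the 6 tumor lines its lowest, median and highest values were 6.49, 15.48 and 52.32 TPM. PanIN lines had 3.91, 7.08 and 13.11 TPM and normal lines 0.07, 0.23 and 1.01 TPM. Every tumor and every PanIN line thus lay above every normal line, as 2.9% of tested genes did in tumor and 1.26% in PanIN lines, while tumor and PanIN values overlapped. The mean was 23.7 ± 19.8 TPM in tumor (SD, n = 6), 7.53 ± 3.36 in PanIN (SD, n = 6) and 0.323 ± 0.320 in normal lines (SD, n = 7). On the log2(TPM + 1) scale, which understates changes of low genes, it was 14.4-fold higher in tumor and 6.18-fold higher in PanIN lines than in normal lines (log2 differences 3.85 and 2.63). With a pseudocount of 0.1 in place of 1 these differences were 5.63 and 4.32. Acsm3 had entered the tested set through its tumor and PanIN values, since 13 lines reached a TPM of 1 and normal 10 was the single normal line among them.

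Between tumor and PanIN lines Acsm3 differed by 1.22 on the log2 scale (SE 0.40, 95% interval 0.38 to 2.06), which did not pass the test over all genes (limma, adjusted p = 0.0725). It passed in the fits without PanIN 6 (adjusted p = 0.0402) and without tumor 3 (0.0480). By series, from the first to the last, this difference was 1.30, 1.82 and 1.04. The authors' deposited table gives a log2 change of 1.38 with an adjusted p of 0.0566. Among the tumor lines, tumor 9 had 52.32 TPM, tumor 8 had 44.4 and tumor 4 had 19.37, while tumor 7, tumor 5 and tumor 3 had 11.59, 8.08 and 6.49. The SD of log2(TPM + 1) over the tumor lines was 1.19, larger than that of 99.7% of tested genes, and in PanIN lines it was 0.56, larger than that of 95.9%.

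Within series, the Acsm3 difference of tumor over normal lines was 4.00 in the first, 3.56 in the second and 4.10 in the last. That of PanIN over normal lines was 2.70, 1.74 and 3.05. All 6 values had the direction of the pooled ones. This was fixed beforehand, since every tumor and PanIN line lay above every normal line, the difference on which Acsm3 had been selected. The genes nearest to Acsm3 in the RefSeq gene table that also have a row of TPM are Thumpd1 and Eri2, of which Eri2 overlaps the end of Acsm3. Libraries mark strand, but no source used here says whether counting used strand, so reads of the overlap could be credited to either gene. Eri2, an exonuclease gene, averaged 9.67 TPM in tumor, 7.30 in PanIN and 8.26 in normal lines and was called in no comparison (limma, adjusted p = 0.300 tumor against normal, 0.715 PanIN against normal and 0.151 tumor against PanIN). Thumpd1 averaged 43.5, 38.9 and 42.9 TPM in tumor, PanIN and normal lines and was called in none.

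**Figure D1:**
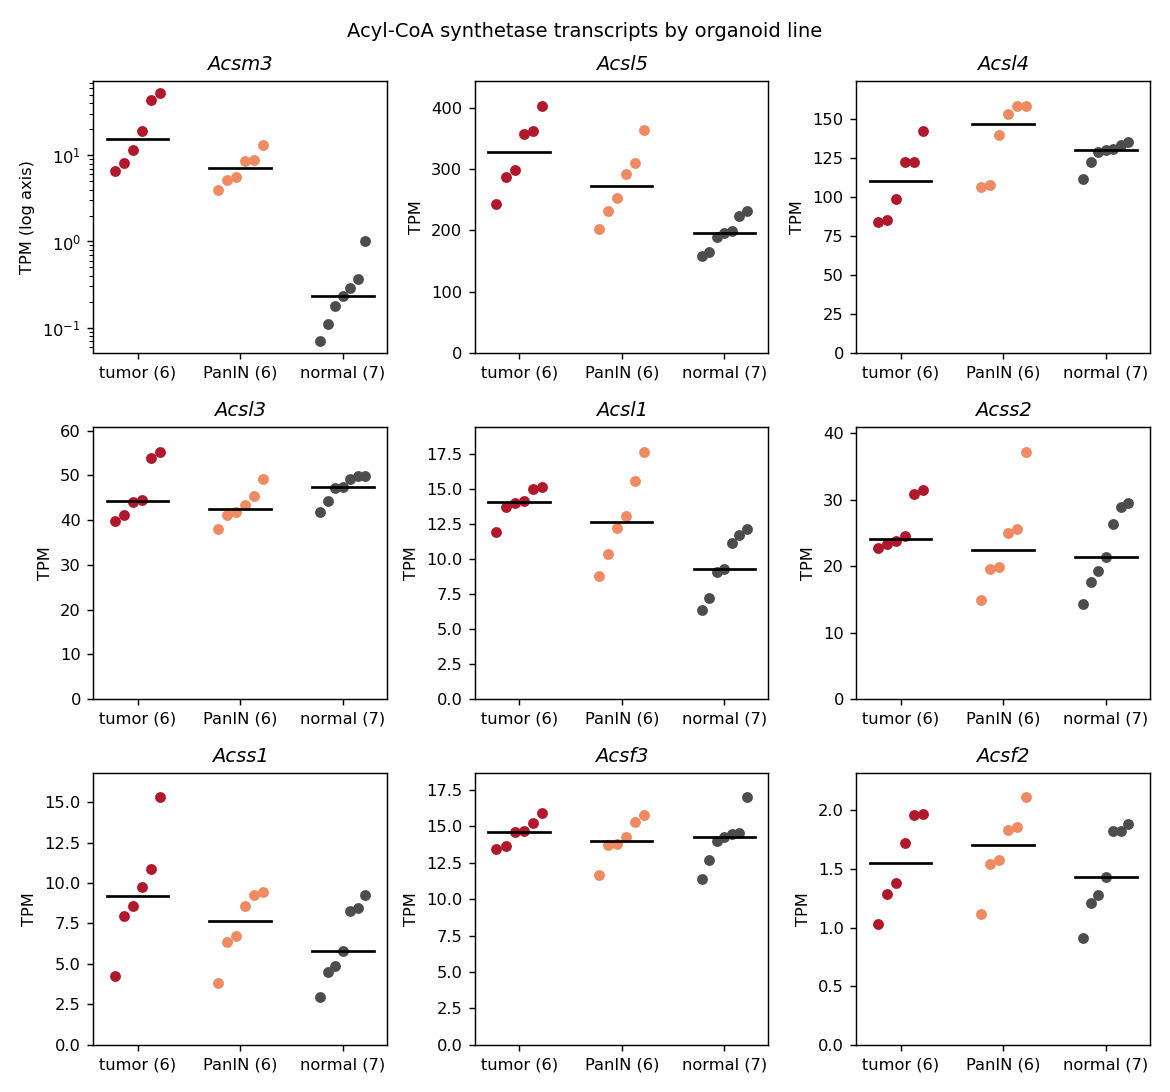
TPM of each of the 9 members in every line, by group, with tumor lines on the left, PanIN lines in the middle and normal lines on the right; a point is a line, the bar is the group median, and the Acsm3 axis is logarithmic. Acsm3 runs between 6.49 and 52.32 TPM in tumor lines and stays at or below 1.01 TPM in normal lines, and Acsl5 has its 6 tumor lines above all normal lines.

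Among the long-chain enzymes, Acsl5 was the most abundant and was higher in tumor and in PanIN lines than in normal lines. Acsl5 is known as a synthetase of mitochondria and the endoplasmic reticulum and is abundant in intestinal epithelium. Its lowest, median and highest values were 243.64, 328.1 and 402.99 TPM in tumor, 202.3, 271.9 and 363.14 in PanIN and 158.52, 196.67 and 231.22 in normal lines. Every tumor line lay above every normal line, as for 2.9% of tested genes, whereas PanIN lines overlapped both other groups. Acsl5 averaged 325.2 ± 58.7 TPM in tumor (SD, n = 6), 275.2 ± 58.3 in PanIN (SD, n = 6) and 194.8 ± 27.0 in normal lines (SD, n = 7). It was 1.66-fold higher in tumor than in normal lines (log2 difference 0.73, SE 0.13, 95% interval 0.45 to 1.01; limma, adjusted p = 0.00102). With any 1 of the 19 lines left out it was still called (adjusted p at most 0.00385, without tumor 8). By series the difference was 0.34, 0.79 and 0.82.

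Acsl5 was 1.396-fold higher in PanIN than in normal lines (log2 difference 0.48, SE 0.13, 95% interval 0.20 to 0.76; limma, adjusted p = 0.0358). This call was the weaker one. It was lost without normal 6, 11, 12 or 13 (adjusted p 0.0768, 0.0657, 0.0637 and 0.0569), and without PanIN 4, 5 or 6 (0.0775, 0.0950 and 0.0899). It was also lost with no filter on low values (0.0550) and with sex as a term (0.0585). The differences within the 3 series were 0.25, 0.57 and 0.80. In the authors' deposited table the log2 change was 0.53, with an adjusted p of 0.00203. Tumor lines were not called against PanIN lines (log2 difference 0.25, 95% interval -0.04 to 0.54; limma, adjusted p = 0.240). The sexes lay apart within each group: Acsl5 had 243.64 to 298.96 TPM in male and 357.15 to 402.99 in female tumor lines, 291.44 to 363.14 in male and 202.3 to 252.34 in female PanIN lines, and 223.23 to 231.22 in male and 158.52 to 199.57 in female normal lines. Male lines were thus lower among tumor lines and higher in the other groups.

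Acsl4, whose enzyme prefers arachidonic acid and other polyunsaturated chains and which is known for making cells sensitive to ferroptosis, was second in abundance and not higher in tumor lines. Its lowest, median and highest values were 84.06, 110.7 and 142.3 TPM in tumor, 106.8, 146.8 and 158.78 in PanIN and 112.04, 130.7 and 135.49 in normal lines. All groups overlapped. PanIN 5 and PanIN 6, with 106.8 and 107.67 TPM, lay below the other PanIN lines, which had 140.3 to 158.78 TPM. The log2 difference was -0.25 between tumor and normal lines (95% interval -0.51 to 0.01; limma, adjusted p = 0.127) and -0.34 between tumor and PanIN lines (95% interval -0.61 to -0.07; adjusted p = 0.0990). Between PanIN and normal lines it was 0.09 (adjusted p = 0.786). None of these passed over all lines. Tumor against normal passed without tumor 4 (adjusted p = 0.0351), and tumor against PanIN passed without tumor 4 (0.0286) and without PanIN 6 (0.0331). Within the series the tumor and PanIN difference was -0.14, -0.55 and 0.04. The authors' deposited table gives -0.39 for it, with an adjusted p of 0.0511.

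Acsl1, a major synthetase of liver, heart and fat, was a minor long-chain member here and was higher in tumor than in normal lines. It had 11.96, 14.08 and 15.19 TPM as lowest, median and highest value in tumor, 8.82, 12.6 and 17.7 in PanIN and 6.35, 9.32 and 12.14 in normal lines. Tumor 9, at 11.96 TPM, was the single tumor line below the highest normal line. Acsl1 was 1.45-fold higher in tumor than in normal lines (log2 difference 0.53, SE 0.15, 95% interval 0.22 to 0.84; limma, adjusted p = 0.0122). It stayed called with any 1 of the 19 lines left out (adjusted p at most 0.0321, without tumor 8). Between PanIN and normal lines the log2 difference of 0.40 was not called (95% interval 0.09 to 0.71; adjusted p = 0.126), but it was called without PanIN 3 (0.0455). The authors' deposited table has it called, with a log2 change of 0.48 and an adjusted p of 0.0293. Within the 3 series the tumor and normal difference was 0.34, 0.60 and 0.83, while that of PanIN and normal lines was -0.05, 0.16 and 1.18. Tumor and PanIN lines overlapped (log2 difference 0.13, adjusted p = 0.588).

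Acsl3, an enzyme of the endoplasmic reticulum and of forming lipid droplets, varied least of the long-chain members over all 19 lines. Within tumor lines Acsl1 varied less (coefficient of variation 8.25%, against 14.1% for Acsl3), and within normal lines Acsl4 was as steady (6.32%, against 6.55%). Its lowest, median and highest values were 39.81, 44.28 and 55.31 TPM in tumor, 37.99, 42.59 and 49.24 in PanIN and 41.73, 47.33 and 49.91 in normal lines. All groups overlapped and no comparison was called. The 95% interval of the log2 difference ran over -0.19 to 0.14 between tumor and normal lines (limma, adjusted p = 0.826) and over -0.29 to 0.04 between PanIN and normal lines (adjusted p = 0.450).

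**Figure D2:**
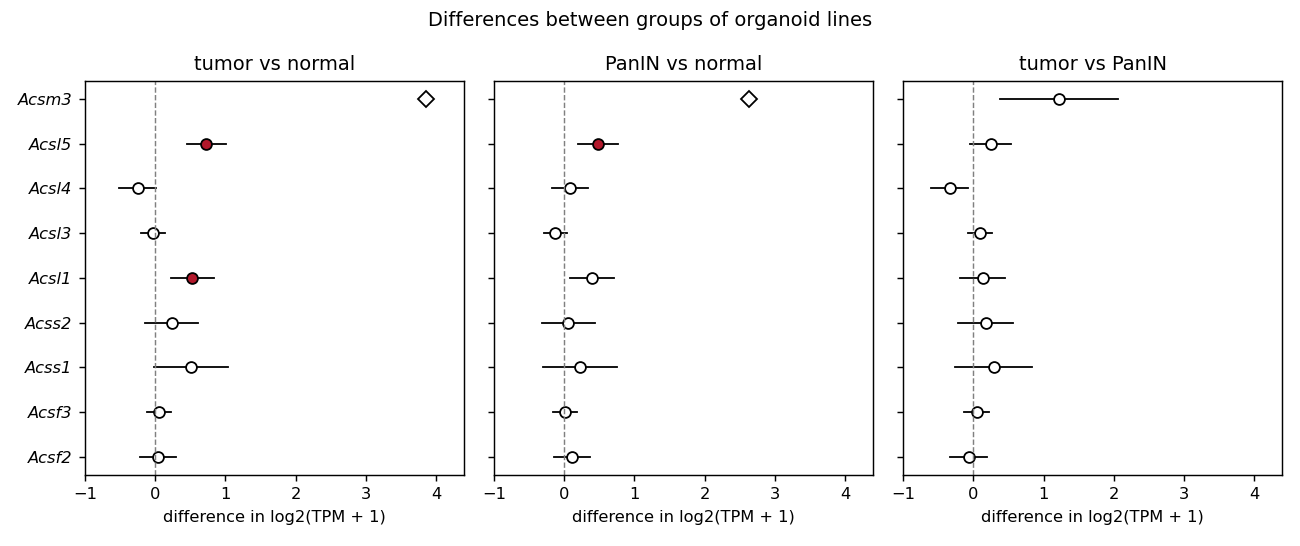
Log2 difference of each member in tumor over normal, PanIN over normal and tumor over PanIN lines, with its 95% interval from limma on log2(TPM + 1). Filled red points have an adjusted p below 0.05 and open diamonds without an interval are the Acsm3 values against normal lines, which were not tested; Acsl5 lies at 0.73 and Acsl1 at 0.53 in tumor over normal lines, and the values of tumor over PanIN lines hold no filled point.

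Because TPM is corrected for length, the 4 long-chain members could be summed within a line. The summed level was 438.1 to 567.8 TPM in tumor lines (median 491.9), 406.3 to 534.0 in PanIN lines (median 473.7) and 350.0 to 413.2 in normal lines (median 375.6). Acsl5 made up 55.1% to 71.0% of it in tumor (median 67.3%), 49.8% to 68.0% in PanIN (median 57.0%) and 45.3% to 57.6% in normal lines (median 51.3%). Acsl4 made up 16.3% to 32.2% in tumor (median 21.1%), 20.2% to 37.8% in PanIN (median 31.4%) and 27.9% to 38.7% in normal lines (median 33.7%). The groups overlapped in both shares, which are given as description. The Acsl3 share did not overlap between normal lines and the others. It was 8.18% to 10.7% in tumor, 7.91% to 10.4% in PanIN and 11.2% to 14.1% in normal lines. The Acsl1 share overlapped between all groups. No share of other genes is given beside the Acsl3 separation, which was not tested. The ratio of Acsl5 to Acsl4 was lowest in tumor 4 (1.71) and highest in tumor 8 (4.31) among tumor lines, with a median of 3.21. In PanIN lines it was 1.32 to 3.37, with PanIN 5 at 2.91 and PanIN 6 at 3.37 and a median of 1.83, and in normal lines 1.17 to 2.06, with a median of 1.52.

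**Figure D3:**
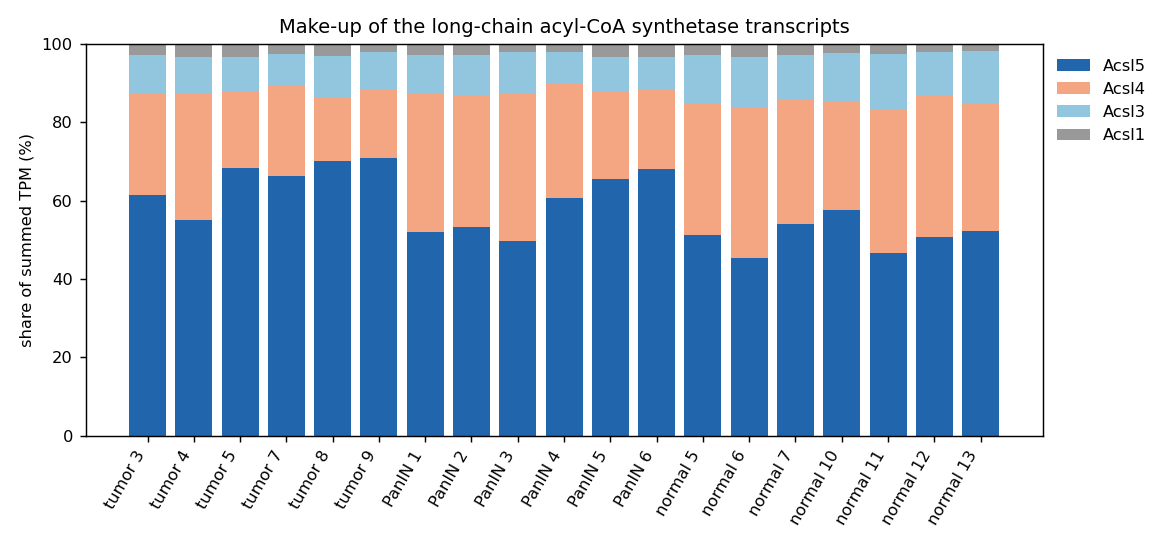
Share of Acsl5, Acsl4, Acsl3 and Acsl1 in their summed TPM, in percent, as a stacked bar for each line, with tumor lines first, then PanIN and normal lines. The Acsl5 share is 55.1% to 71.0% in tumor lines and 45.3% to 57.6% in normal lines, and PanIN 5 and PanIN 6 have the highest Acsl5 shares of the PanIN lines.

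Neither short-chain member was called in any comparison. Acss1, the mitochondrial acetyl-CoA synthetase, had 4.24, 9.18 and 15.29 TPM as lowest, median and highest value in tumor, 3.82, 7.66 and 9.44 in PanIN and 2.98, 5.79 and 9.26 in normal lines. Tumor 5 had the lowest and tumor 7 the highest tumor value, so that the tumor lines spanned most of the range of all lines. The log2 difference was 0.51 between tumor and normal lines (95% interval -0.02 to 1.04; limma, adjusted p = 0.124), and it passed without tumor 5 (adjusted p = 0.0408). Within the 3 series it was 0.13, 0.38 and 1.12. Against normal lines PanIN lines had a log2 difference of 0.22 (adjusted p = 0.720), and tumor against PanIN lines had 0.29 (0.475). Acss2, the enzyme that makes acetyl-CoA in cytosol and nucleus, had 22.74, 24.2 and 31.42 TPM in tumor, 14.99, 22.44 and 37.25 in PanIN and 14.34, 21.46 and 29.5 in normal lines. PanIN 5 and PanIN 6 held the highest and lowest PanIN value. Adjusted p was 0.325 for tumor against normal, 0.909 for PanIN against normal and 0.551 for tumor against PanIN lines. Acss2 exceeded Acss1 in every line, by a ratio of 1.53 to 7.30 in tumor, 1.59 to 5.11 in PanIN and 2.32 to 6.57 in normal lines.

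The ACSF genes showed no called difference either. Acsf3 encodes a mitochondrial malonyl-CoA synthetase and had 13.44, 14.6 and 15.88 TPM as lowest, median and highest value in tumor, 11.67, 14.0 and 15.77 in PanIN and 11.39, 14.28 and 16.97 in normal lines. Its log2 differences were narrow, with 95% intervals of -0.11 to 0.23 for tumor against normal and -0.16 to 0.18 for PanIN against normal lines (limma, adjusted p = 0.625 and 0.985). Acsf2, a medium-chain relative, was the lowest member in tumor and PanIN lines, with 1.03, 1.55 and 1.97 TPM in tumor, 1.12, 1.71 and 2.11 in PanIN and 0.91, 1.43 and 1.88 in normal lines. Adjusted p for Acsf2 was 0.798, 0.698 and 0.758 for tumor against normal, PanIN against normal and tumor against PanIN lines.

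By mean TPM, members in tumor lines ranked Acsl5, Acsl4, Acsl3, Acss2, Acsm3, Acsf3, Acsl1, Acss1 and Acsf2. Acsm3 took the fifth place there, the seventh in PanIN lines and the last in normal lines, while the other 8 kept the same order in all groups. In tumor lines the ranges of Acss2 (22.74 to 31.42 TPM) and Acsm3 overlapped, as did those of Acsm3, Acsf3, Acsl1 and Acss1, so these neighbours were not apart beyond the spread. Ranges of Acsl5, Acsl4 and Acsl3 did not overlap within tumor or PanIN lines. Of tested genes, 61.6% lay below the Acsm3 mean in tumor lines, 32.1% in PanIN lines and 0.168% in normal lines. For Acsl5 these were 97.2%, 96.8% and 95.7%. Acsm3 had entered the tested set through its tumor and PanIN values, so its low place in normal lines follows from the filter and its selection.

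Counted without Acsm3, 2 of 8 members (Acsl5 and Acsl1) were called higher and 0 lower between tumor and normal lines, where 32.2% of all 12500 tested genes were called (17.8% higher and 14.4% lower). The 2 of 8 are near that background. Between PanIN and normal lines 1 of 8 (Acsl5) was called higher, where 6.78% of tested genes were called (3.1% higher and 3.68% lower). Between tumor and PanIN lines, with 1.6% of genes called, 0 of 9 members were called by limma, and 2 of 9 (Acsm3 and Acsl4) had an unadjusted p below 0.05, as had 29.7% of all tested genes. The authors' deposited table calls 0 of 9 there, with 11.7% of its tested genes called. In the authors' deposited table Acsl1 and Acsl5 were called in both comparisons with normal lines, with 32.5% (tumor) and 10.5% (PanIN) of genes called. Acsm3 was called in both as well, but it had been selected on this difference in these same lines, so its calls add no support. The median log2 difference of the 8 members was 0.15 between tumor and normal lines against 0.04 over all tested genes. It was 0.10 against -0.03 between PanIN and normal lines and 0.12 against 0.06 between tumor and PanIN lines. Both comparisons with normal lines share the same 7 normal lines.

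Relatives outside the 9 members were mostly silent. Of 16 other synthetase genes, 5 were tested: Aacs, Aasdh, Slc27a1, Slc27a3 and Slc27a4. Acsm1, Acsm4, Acsm5 and Slc27a2 were listed at 0 in every line and Acsm2 at no more than 0.02 TPM, so Acsm3 was the sole ACSM gene among these with a value above 0.02 TPM. Aacs, a cytosolic acetoacetyl-CoA synthetase gene, averaged 65.5 TPM in tumor, 59.6 in PanIN and 65.5 in normal lines and was not called. Slc27a3, of the fatty acid transport protein family, was 1.31-fold lower in tumor than in normal lines, with 1.60 to 2.58 TPM in tumor and 2.18 to 3.65 TPM in normal lines (limma, adjusted p = 0.0164). It was the single call among the 5 in any comparison, and quantile normalization ended it (adjusted p = 0.0550).

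Genes that use or compete for acyl-CoA were taken as 8 further lists, chosen with earlier results of these data known. Between tumor and normal lines, 7 of 13 tested genes of fatty acid synthesis, elongation and desaturation rose and 0 fell, against 17.8% and 14.4% of all tested genes. Elovl6, which elongates palmitate, had 57.34, 64.7 and 70.18 TPM as lowest, median and highest value in tumor, 36.94, 49.0 and 61.63 in PanIN and 33.23, 48.58 and 53.29 in normal lines. All tumor lines lay above all normal lines for it, as for 2.9% of tested genes (1.45-fold higher, limma, adjusted p = 0.00332). Fads1, the desaturase that makes arachidonic acid, rose 1.47-fold (adjusted p = 0.00300), and the elongase genes Elovl1 and Elovl5 rose 1.25-fold (0.0114) and 1.22-fold (0.0102; 0.0571 after quantile normalization). The number of rises in this list was 5 to 8 over the fits without 1 line and 5 to 7 under other settings apart from the replicate block. In PanIN lines 0 of the 13 were called, with 3 at an unadjusted p below 0.05, against 19.02% of all tested genes.

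Both Acot1 and Acot2, whose enzymes split acyl-CoA again, were lower in tumor and in PanIN lines. Acot1, the cytosolic acyl-CoA thioesterase, had 8.68, 13.1 and 15.42 TPM as lowest, median and highest value in tumor, 13.17, 16.8 and 23.44 in PanIN and 30.13, 31.48 and 38.41 in normal lines. Every tumor and PanIN line lay below every normal line, and the share of tested genes that did so is not given here. It fell 2.47-fold in tumor (limma, adjusted p = 1.25e-05) and 1.81-fold in PanIN lines (adjusted p = 0.000962). Acot2, its mitochondrial paralog, fell 1.68-fold (0.000568) and 1.63-fold (0.00171) in them. Their near-identical sequences can share reads, so the split between the paralogs is uncertain. In all, 3 of 12 thioesterase and binding protein genes fell and 0 rose in tumor lines, and 2 fell in PanIN lines. Over all tested genes 14.4% fell and 17.8% rose in tumor lines, and 3.68% fell and 3.1% rose in PanIN lines. In the beta-oxidation list 4 of 16 fell and 1 rose in tumor lines: Slc25a20, the carnitine carrier, fell 1.39-fold (0.00247), Cpt1a, the entry enzyme of mitochondrial oxidation, 1.43-fold (0.00632) and Acadvl 1.19-fold (0.0141). Echs1, the enoyl-CoA hydratase, rose 1.30-fold (0.00959). In PanIN lines Acadl fell 1.33-fold (0.0103) and 0 rose; Cpt1a also passed (0.0361), a call lost in 7 of the 19 fits without 1 line (highest adjusted p 0.104, without PanIN 5).

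Peroxisomal genes went both ways in tumor lines, with 2 rises and 4 falls among 10, where 17.8% of all tested genes rose and 14.4% fell. Acox2, a peroxisomal acyl-CoA oxidase gene, fell 2.23-fold (limma, adjusted p = 0.00252). Of 17 glycerolipid and phospholipid acylation genes, 3 rose and 3 fell in tumor lines, near the shares over all tested genes. In PanIN lines 1 rose, where 3.1% of all tested genes did. Gpam, the mitochondrial acyltransferase that starts glycerolipid synthesis, had 21.63, 28.1 and 38.29 TPM in tumor, 20.87, 27.9 and 34.59 in PanIN and 12.92, 17.93 and 19.4 in normal lines. Both tumor and PanIN lines lay wholly above normal lines for it, as for 2.9% and 1.26% of tested genes (1.63-fold, limma, adjusted p = 0.00119, and 1.61-fold, adjusted p = 0.00322). Lpin2, a phosphatidate phosphatase gene, fell 1.57-fold in tumor lines (0.00202).

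Of 6 uptake and lipid droplet genes, 2 fell and 0 rose in tumor lines, and 0 were called in PanIN lines. For this and the next lists, 17.8% of all tested genes rose and 14.4% fell in tumor lines. Plin2, the droplet coat protein gene, had 14.34, 23.9 and 31.37 TPM in tumor, 20.48, 42.9 and 63.7 in PanIN and 45.56, 54.45 and 77.57 in normal lines. Tumor lines lay wholly below normal lines for it (2.48-fold lower, limma, adjusted p = 0.000650), and the share of tested genes that did so is not given here. Of 9 PPAR and SREBP regulators, 3 rose and 1 fell in tumor lines. Pparg, a fatty acid sensing nuclear receptor, had 5.81, 9.45 and 13.05 TPM in tumor, 5.06, 5.89 and 12.63 in PanIN and 3.32, 4 and 5.24 in normal lines. Tumor lines lay wholly above normal lines for it, as for 2.9% of tested genes (1.91-fold, limma, adjusted p = 0.00269). Its relative Ppard rose 1.45-fold in tumor lines (0.00721) and 1.41-fold in PanIN lines (0.0341), the second of which was lost in 7 of the 19 fits without 1 line (highest adjusted p 0.0972, without PanIN 5). Of 15 acetyl-CoA and short-chain metabolism genes, 4 rose in tumor lines, among them Acat2, a cytosolic thiolase gene (1.36-fold, 0.0173). That count was 2 without normal 12, normal 13 or tumor 7, 0 without tumor 8 and 0 after quantile normalization. Between tumor and PanIN lines 0 of the 103 tested genes of all 9 lists were called by limma, and 24 had an unadjusted p below 0.05, against 29.7% of all tested genes.

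**Figure D4:**
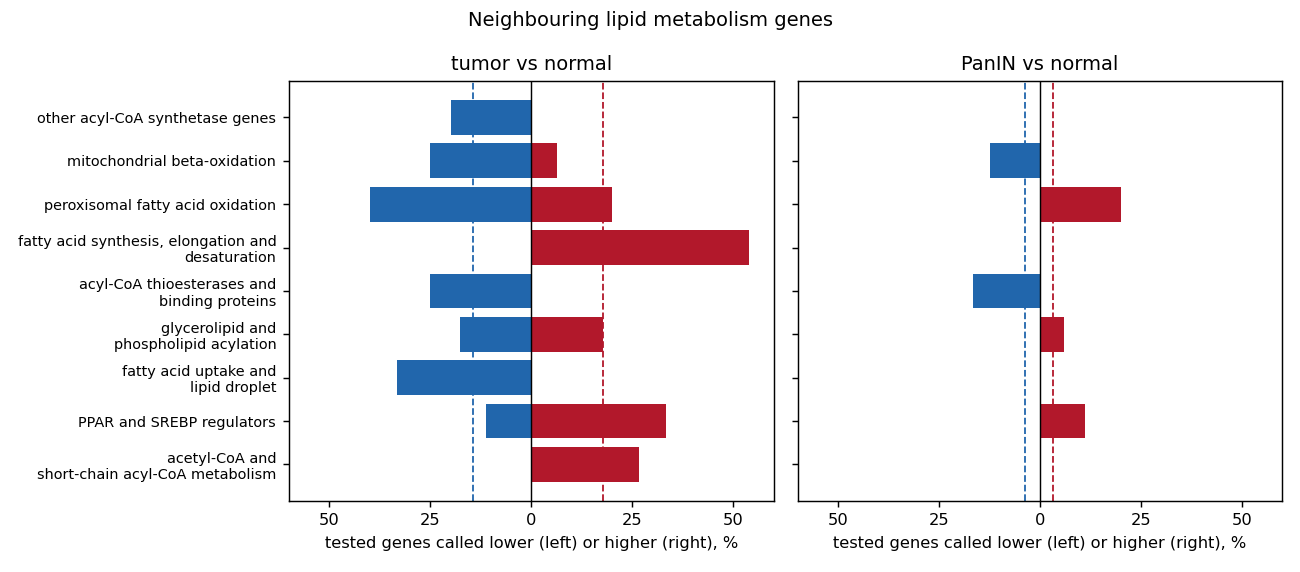
Percent of the tested genes of each list called lower (to the left) and higher (to the right) by limma at an adjusted p below 0.05, for tumor over normal and PanIN over normal lines; dashed lines mark the percent of all 12500 tested genes. Fatty acid synthesis, elongation and desaturation has 7 of 13 genes higher and 0 lower in tumor lines, and the thioesterase list has calls to the lower side alone.

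Among the members, the pattern of Acsm3 over the 19 lines was most like that of Acsl5, with a Pearson r of log2(TPM + 1) of 0.80, or 0.31 after group means were removed. With group means removed Acsl3 was nearer to it (r 0.59, but 0.06 over all lines), so which member is nearest depends on the difference between groups for which Acsm3 had been selected. Acss1 was also nearest to Acsl5 (r 0.67, or 0.62 with group means removed), as was Acsl1 (0.65 and 0.28). Acsl4 was nearest to Acsf2 (0.60 and 0.69) and Acsf3 to Acsl1 (0.51 and 0.56). Acss2 was nearest to Acsl1 and Acsl3 to Acss1, both with an r of 0.33. These are descriptions over lines that share groups and series.

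Of all tested genes, Vsig1, Agr2, Pcsk6, Depdc7 and Sgsm3 were most like Acsm3 over the 19 lines, with r of 0.95, 0.95, 0.92, 0.92 and 0.91. With group means removed, r was 0.83, 0.79, 0.59, 0.82 and 0.71. Agr2, the disulfide isomerase gene of mucus-secreting cells, had 10.71, 26.41 and 83.47 TPM as lowest, median and highest value in tumor, 4.19, 5.91 and 12.36 in PanIN and 0.1, 0.56 and 2.82 in normal lines. Vsig1, an adhesion molecule gene known from gastric epithelium, had 2.42, 4.50 and 12.03 TPM in tumor, 1.02, 2.31 and 3.88 in PanIN and 0.06, 0.32 and 0.64 in normal lines. Like Acsm3, all 5 genes had every tumor and PanIN line above every normal line, as 2.9% of tested genes did in tumor and 1.26% in PanIN lines. They were picked by their likeness to Acsm3, which had been selected on this difference, so their separation is not independent of that choice. Pcsk6, a proprotein convertase gene, had 26.74 to 58.69 TPM in tumor, 27.89 to 42.43 in PanIN and 7.71 to 14.93 in normal lines.

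**Figure D5:**
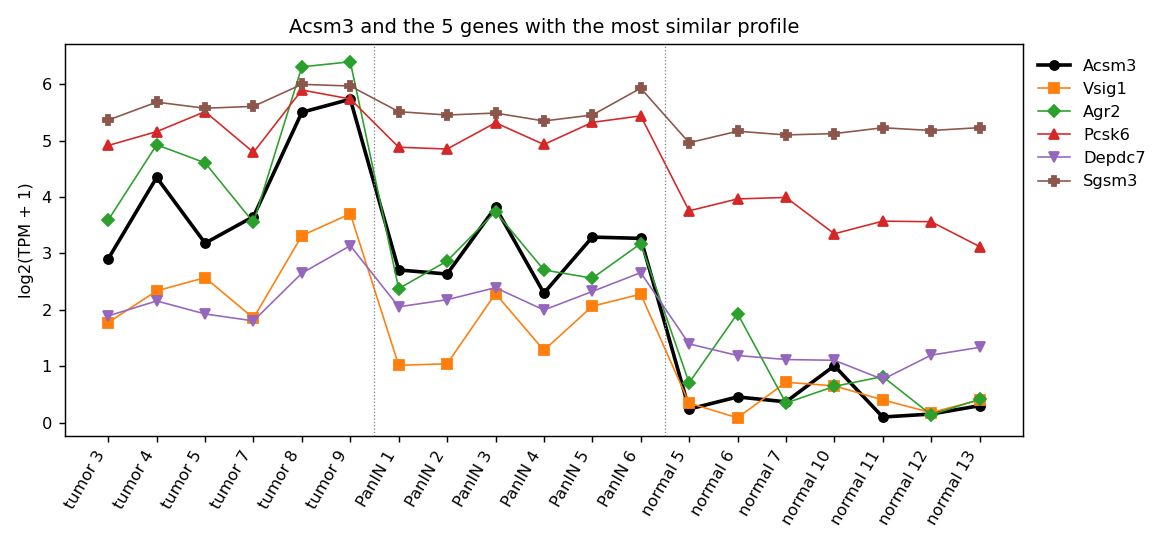
Log2(TPM + 1) of Acsm3 and of the 5 genes with the highest Pearson r to it, in each of the 19 lines, with tumor lines on the left, then PanIN and normal lines. Normal lines lie lowest for Acsm3 and for all 5 other genes, and tumor 8 and tumor 9 hold the highest Acsm3 values, 44.4 and 52.32 TPM.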

How the data were processed

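Total RNA of 19 organoid lines (6 tumor, 6 PanIN, 7 normal) was depleted of ribosomal RNA and sequenced from strand-marking libraries, per the labels' protocols. The authors deposited TPM for each line in a single table. Per the submitters' processing notes, FastQC, Bowtie 1.1.0, RSEM 1.2.11, DESeq2 1.4.1, DESeq and genome build mm9 were used; the annotation is not given in these sources. Per the file headers, the deposited table also holds for each comparison a log2 fold change and its error, a test statistic (a score), a p-value and its adjusted form, all by the authors. The authors gave no comparison for 11 expressed rows, which hold 16.3% to 28.6% of a line's TPM. The number of columns of other samples was 0.

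TPM was tested as log2(TPM + 1), with 1 as pseudocount, with limma 3.58.1 in R 4.3.3 (1 mean per group over 19 lines, eBayes with trend, two-sided, Benjamini-Hochberg within a contrast). Genes needed a TPM of at least 1 in at least 6 lines, and a call an adjusted p below 0.05. The fit was tested on simulated data. The R packages data.table (version 1.17.8) and jsonlite 2.0.0, with Python 3.11.15 and matplotlib 3.10.9 were also used. Members and gene lists were chosen with earlier results of these data known. Beside members, the naming rule took per list and contrast up to 4 called genes by smallest p, the 5 genes most like Acsm3 and the neighbours of Acsm3; of these, the text gives a selection. Alternatives varied pseudocount, filter, scaling, model terms and lines. TPM keeps no depth, so no count model or counting interval could be used. Promoter windows were matched by symbol for all 9 members in RefSeq tables of GRCm38.p6; no mm9 coordinates are given. One further Cre-activated allele of the PanIN and tumor mice and some genes of the lists are not reported here.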

Additional observations from a re-analysis of the deposited data

Results flagged for a closer look

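Acsm3 in normal 10 had 1.01 TPM, while the other 6 normal lines had 0.07 to 0.37 TPM. Its gap to the next line was large for the whole range of the normal lines. It was the single such value among 27 sets of a member in a group, and chance alone flags about 1 in 20 groups of this kind. Normal 10 still lay below all PanIN and tumor lines for Acsm3.

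Acsl5 differed between male and female lines in opposite ways in tumor and PanIN lines, a pattern tested after its values were seen. With a mean fitted for each group and sex, the log2 difference of male over female lines was -0.44 in tumor lines (3 male, 3 female), 0.49 in PanIN lines (3 male, 3 female) and 0.33 in normal lines (2 male, 5 female), none called alone (limma, adjusted p = 0.125, 0.104 and 0.929). The difference of the tumor value from the PanIN value was -0.93 (SE 0.16; limma, adjusted p = 0.00999), a test that called 9.66% of all genes. It ran from -1.002 to -0.84 and was called in all 19 fits that lacked 1 line (adjusted p at most 0.0314). All 3 female PanIN lines belonged to the first identifier series and the 3 male ones to the others, so sex and series cannot be told apart among PanIN lines. The tumor value differed from the normal value by -0.76, which was not called (adjusted p = 0.160).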

How the results depend on the processing

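Over 31 settings, 19 of which left out 1 line, most member values kept their direction and their side of the threshold: 300 of 321 under the other settings and 490 of 513 without 1 line. Most of these values were uncalled at the start, so for them this means staying uncalled, and the untested Acsm3 values are counted too. The call of Acsl5 between PanIN and normal lines was lost in 10 of the 31 settings. Against normal lines, the count of called members (Acsm3 not counted) was 1 in PanIN lines. It was 0 with no filter on low values, 0 with sex as a term and 0 with the replicate block, and 0 to 2 without 1 line. In tumor lines it was 2, which became 0 with the replicate block, and 2 to 3 without 1 line. Between tumor and PanIN lines the count, again without Acsm3, was 0, and 0 to 1 without 1 line (1 without PanIN 6 or tumor 4). Acsm3 itself was called there without PanIN 6 and without tumor 3.

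The replicate block used line numbers that groups share. Same-numbered deviations correlated at 0.085, 0.100 and 0.056 between tumor and PanIN lines and at -0.31 to 0.25 in the other pairs. Of tumor lines that share a number with a PanIN line, 0 of 3 correlated best with that line. The labels do not say whether same-numbered lines share a mouse or batch, and so few pairs cannot decide it. With the block Acsl5 had log2 differences of 0.63 (tumor against normal) and 0.91 (PanIN against normal) and Acsl1 0.25 (tumor against normal), none called. Over all genes the block left 15 calls for tumor against normal, 289 for PanIN against normal and 0 for tumor against PanIN lines; of the named list genes, the block kept the calls of Acot1 and Gpam in PanIN lines alone. It turned the sign of Acsl4 (-0.31), Acsf2 (-0.30) and Acsf3 (-0.049) between PanIN and normal lines, and of Acss1 (-0.077), Acsf2 (-0.26), Acsf3 (-0.041) and Srebf2 (-0.024) between tumor and normal lines.

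Other sign changes were in uncalled differences near 0. Rescaling without the 11 rows gave -0.029 for Acsf3 and -0.0033 for Acsf2 (tumor against normal), -0.015 for Acsf3 (PanIN against normal) and -0.014 for Acsf3 (tumor against PanIN). Sex as a term gave -0.0030 for Acsf3 (PanIN against normal), the series term 0.047 for Acsf2 and median-of-ratios scaling -0.0059 for Acsf3 (both tumor against PanIN). Without 1 line, ranges that crossed 0 were -0.078 to 0.17 for Acss2 and -0.040 to 0.055 for Acsf3 (PanIN against normal), and -0.078 to 0.015 for Acsl3 and -0.014 to 0.11 for Acsf2 (tumor against normal). The cause was not tested.

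Over all genes there were 4024 calls for tumor against normal (2657 without tumor 8), 847 for PanIN against normal (496 without PanIN 5; 535 with a filter at a TPM of 5) and 200 for tumor against PanIN lines. The last count ran from 53 to 2836 without 1 line (2836 without PanIN 6, 2398 without tumor 4, 784 without normal 11). It was 93 with no filter, 130 with a filter at a TPM of 5, 97 with the 2 groups alone, 65 with series as a term and 333 after quantile normalization. Of the calls for tumor against normal lines 55.1% were rises, and 37.4% when TPM was rescaled without the 11 rows. Between PanIN and normal lines they made up 45.7%, and 56.7% with median-of-ratios scaling. For the sex difference of Acsl5 between tumor and PanIN lines, 4 other settings, added after its values were seen, gave -0.93 to -0.73, all called. The filter at a TPM of 5 dropped Acsf2, which has no value there.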

Other observations

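Acss3, a mitochondrial short-chain acyl-CoA synthetase gene outside the 9 members, ran the other way from Acsm3; it was singled out after its values were seen. It had 0.13, 0.39 and 0.70 TPM as lowest, median and highest value in tumor lines, 0.07, 0.28 and 0.55 in PanIN lines and 0.68, 1.38 and 3 TPM in normal lines. All PanIN lines lay below all normal lines, a separation whose share over all genes is not given here. Tumor and normal lines overlapped narrowly. With a TPM of 1 in 5 lines it was not in the tested set. In the fit with no filter on low values (20990 genes) its log2 difference was -0.78 between tumor and normal lines (limma, adjusted p = 0.00344) and -0.90 between PanIN and normal lines (adjusted p = 0.00302). Between tumor and PanIN lines it was 0.13 (adjusted p = 0.721).

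Sex was labelled for all lines, 11 female and 8 male. With sex as a term no member was called between male and female lines (limma, adjusted p = 0.999 for each of the 9), also not the X-linked Acsl4, with a log2 difference of -0.12 in male over female lines. Such a term averages over groups and does not show effects that go opposite ways in them, as those of Acsl5 did. Acsl4 had 106.8 to 140.3 TPM in the 3 male and 153.39 to 158.78 TPM in the 3 female PanIN lines, while the sexes overlapped in tumor and normal lines. The sex difference of Acsl4 in PanIN lines was not called in a fit with a mean for each group and sex (log2 -0.42, adjusted p = 0.193), nor was its change between tumor and PanIN lines (0.59, adjusted p = 0.0993).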
